A study of Mus musculus with 66 samples.

Results

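The difference between spinal cord and brain was measured in DBA/1J wild-type mice, the strain-matched controls of a study of spontaneous *Rorb* mutants. The comparison holds 6 of the 66 RNA sequencing libraries of the series. It was chosen by genotype and tissue: 3 spinal cords against 3 brain hemisections, 1 of each from the same 3 animals. By the labels, replicate 1 was a male of 8.7 weeks, replicate 2 a male of 8.9 weeks and replicate 3 a female of 8.4 weeks. The labels give these mice as wild type, with no treatment. Brains had been cut sagittally before freezing, and cords had been flushed out of the spine with buffer, so each value is an average over all cells of a hemisection or of a cord. Both tissues were also taken from 3 C57BL/6J wild-type mice of 8.0 weeks and from 3 mice of 8.4 to 8.7 weeks that were homozygous for h5, a start-loss allele of *Rorb* on the DBA/1J background (H5/H5). Cortex, hippocampus and cerebellum of 3 other DBA/1J wild-type mice of 7.0 weeks gave levels in single brain regions. In order of replicate, the C57BL/6J mice were female, female and male. The H5/H5 mice were female, male and female, and the mice of the region libraries female, female and male.

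As background, the central nervous system is laid out along its length by transcription factors. Hox genes, which lie in the clusters A to D, are active from the hindbrain backwards, and members nearer the 5′ end of a cluster start further back along the body. Factors such as *Otx2* and *Six3* mark the front of the neural tube. The adult cord holds motor neurons that release acetylcholine, inhibitory interneurons that release glycine as well as GABA, and long myelinated tracts. The forebrain holds most cortical glutamate neurons, which load their vesicles with the transporter encoded by *Slc17a7*.

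Total counts of the 6 libraries ranged from 35588279 to 42918369, and 21319 to 22108 genes had a count. Levels are given as CPM, counts scaled to the size of the library, with TMM scaling for its composition. Differences are given as the log2 fold change of cord over brain. The ± after a log2 value is its size divided by the square root of the F statistic of edgeR's quasi-likelihood test. It does not measure the spread between animals, and leaving out 1 animal can move a value by more. Cord replicate 3 and brain replicate 1 stood apart from the other libraries of their tissue. The chi-square of counts per gene was 109.7 and 181 between cord replicate 3 and the other cords, against 18.7 between those, and 1.75% of its counts fell on genes without a symbol, against 6.89% and 9.55%. Among the brains the chi-square per gene was 25.0 and 28.3 for pairs with replicate 1 and 11.0 for the other pair. Transcripts of the cerebellum were nearly missing from brain replicate 1. *Gabra6*, a GABA receptor subunit of cerebellar granule cells, was at 0.154, 102 and 96.2 CPM in brain replicates 1, 2 and 3, and *Pcp2*, a Purkinje cell gene, at 0.0514, 22.2 and 22.8 CPM. In the 3 C57BL/6J and the 3 H5/H5 brains *Gabra6* was at 90.6 to 127 CPM. Several genes of the hypothalamus and brain stem were highest in the same library: *Tph2*, the rate-limiting enzyme of serotonin synthesis in neurons, was at 12.9, 5.12 and 4.73 CPM. Of the tested genes with a mean of at least 1 CPM in the other brains, 156 were below 0.5 times that mean in brain replicate 1, against 65 in replicate 2 and 77 in replicate 3. In cord replicate 3, *Lyz2*, a lysozyme of myeloid cells, was at 27.8 CPM against 5.41 and 5.85 CPM in the other cords. Results are therefore given with and without replicate 1 or 3 where it touches them.

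The markers of the comparison matched the labels of all 6 libraries. *Hoxa7* (chr6:52215623-52218573, GRCm38), a Hox gene of the trunk, was at 0.231, 0.0274 and 1.35 CPM in the brains and 50.9, 55.2 and 48.2 CPM in the cords. *Chat* (chr14:32408203-32465909), which makes acetylcholine in motor neurons, was at 4.52, 2.71 and 3.78 CPM in the brains and 22.9, 22.6 and 21.3 CPM in the cords. *Slc17a7* (chr7:45163921-45176139) was at 506, 596 and 542 CPM in the brains and 5.44, 4.83 and 4.13 CPM in the cords. None of the 3 genes overlapped between the tissues. The log2 fold changes were 6.63 ± 0.43, 2.61 ± 0.14 and -6.83 ± 0.10, with adjusted p of 6.97e-06, 2.23e-06 and 8.37e-09 in edgeR's quasi-likelihood test with the animal as a block. Brain replicate 3 had the highest *Hoxa7* of the brains, and without this animal the log2 fold change of *Hoxa7* was 8.62.

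The tissues differed across much of the transcriptome, mostly by less than 2-fold. Of 17276 tested genes, 8780 were called at an adjusted p under 0.05 (50.8%), 4341 higher in cord (25.1%) and 4439 lower in cord (25.7%). The median absolute log2 fold change was 0.32 over all tested genes and 0.59 over those called. A stricter test, which asks whether a difference exceeds 2-fold, passed 1383 genes (8.01%): 513 higher in cord (2.97%) and 870 lower in cord (5.04%). These are called past 2-fold here. The largest differences were mostly losses from brain to cord, with 41 called genes over 16-fold higher and 145 over 16-fold lower in cord. Every cord was above every brain in 5213 genes (30.2%), and every brain above every cord in 5071 (29.4%). Without replicate 1, 567 genes were past 2-fold higher and 990 past 2-fold lower in cord, and 1298 of these were among the 1383. Without replicate 3, 465 were past 2-fold higher and 782 past 2-fold lower, 1186 of them among the 1383. In bulk tissue, fewer cells of a type and less RNA per cell cannot be told apart.

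**Figure D1:**
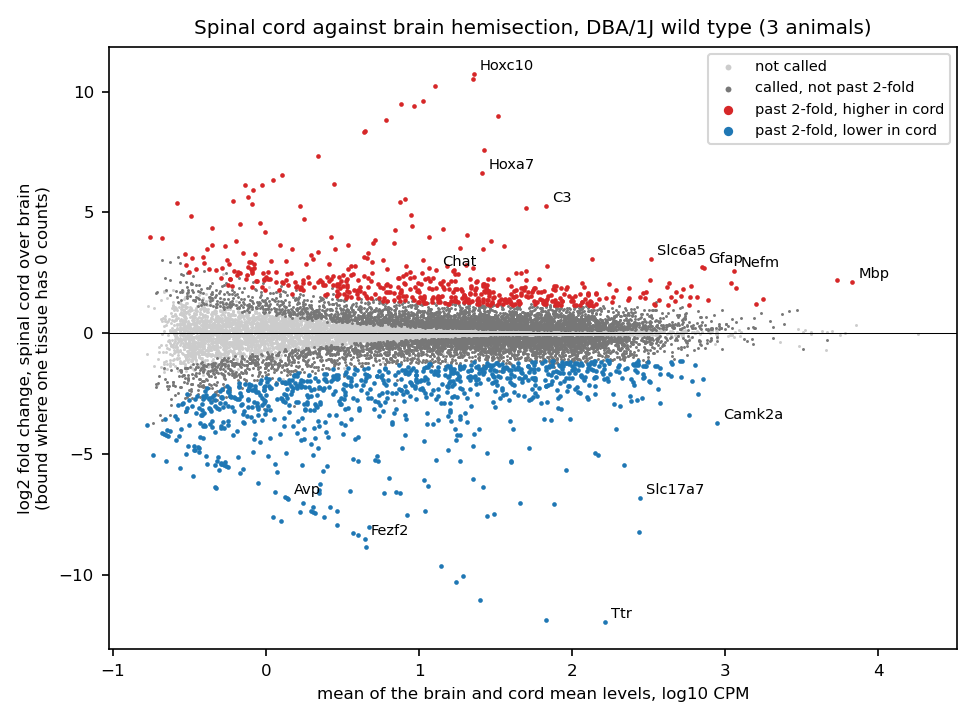
Log2 fold change of spinal cord over brain (y axis) against the mean level of both tissues in log10 CPM (x axis) for the 17033 tested genes that have a symbol, coloured by the outcome of the tests, with genes at 0 counts in one tissue drawn at the bound their counts allow. Hox genes form the upper tail, *Fezf2* and *Ttr* lie in the lower one, and most genes lie near 0.

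Hox genes gave the largest differences towards the cord. Of 39 Hox genes, 33 passed the low-count filter, all 33 were called higher in cord and 31 were past 2-fold, where 2.97% of all tested genes were. A gene absent from the brains passed this filter only through its cord level. *Hoxc10* was at 47.2, 44.9 and 44.7 CPM in the cords and had 0 counts in all 3 brains. With 3 counts over the group as the floor, its level was at least 1676-fold higher in cord. By the same bound *Hoxa10* was at least 783-fold, *Hoxd10* at least 683-fold, *Hoxd11* at least 328-fold and *Hoxc9* at least 322-fold higher. *Hoxc11* was at least 160.3-fold and *Hoxa11* at least 93.5-fold higher, from cord means of 4.36 ± 0.815 and 2.54 ± 0.180 CPM (SD, n = 3). *Hoxa9* had 3 counts in the 3 brains together, at 0.0514, 0 and 0.0287 CPM against 46.0, 45.9 and 43.5 CPM in cord, and *Hoxc8* had 2, at 0, 0 and 0.0573 CPM against 26.0, 26.8 and 23.1 CPM.

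Posterior Hox genes, from paralog group 9 on, were at or near 0 in brain. Summed over its genes, group 5 was highest in the hemisections at 9.56 TPM, group 8 was at 2.78 TPM and group 9 at 0.143 TPM, and groups 10, 11 and 12 had 0 counts in the 3 brains together, and group 13 had 2. TPM is the deposited level per transcript length, which lets genes be compared. In the cords the summed level was highest for group 8, at 170 TPM, followed by group 9 at 130 TPM and group 10 at 99.0 TPM, and it was 1.37 TPM for group 13. Anterior genes differed by smaller folds. *Hoxb5* was at 5.32, 4.51 and 5.36 CPM in the brains and 35.9, 35.4 and 35.8 CPM in the cords, *Hoxa5* rose from 2.95 ± 0.169 to 14.5 ± 2.23 CPM (SD, n = 3), and *Hoxc4* rose from 2.40 ± 0.426 to 10.1 ± 1.90 CPM. *Hoxa2* (log2 fold change 1.73 ± 0.32) was called but not past 2-fold. Per length *Hoxb8* was the most abundant Hox gene of the cord, at 96.1 ± 7.57 TPM (SD, n = 3). It was at 1.11, 2.00 and 5.10 CPM in the brains and 103, 106 and 81.4 CPM in the cords. Brain replicate 3 held the highest brain level of *Hoxb8*, *Hoxa7*, *Hoxb9* and *Hoxd8*, at 5.10, 1.35, 0.287 and 0.573 CPM. Without replicate 3 the log2 fold change of *Hoxb8* went from 5.20 to 6.10, that of *Hoxb9* from 8.97 to 10.3 and that of *Hoxd8* from 7.58 to 8.56. In the dissected cerebellum *Hoxb5* was at 0.0267 ± 0.0306 TPM, against 5.50 ± 0.555 TPM in the hemisections (SD, n = 3). Outside the Hox genes, the non-coding *Gm53* (chr11:96251660-96264484), which is annotated beside *Hoxb9* (chr11:96271330-96276595), had 0 counts in the brains and 12.3, 11.8 and 12.4 CPM in the cords.

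**Figure D2:**
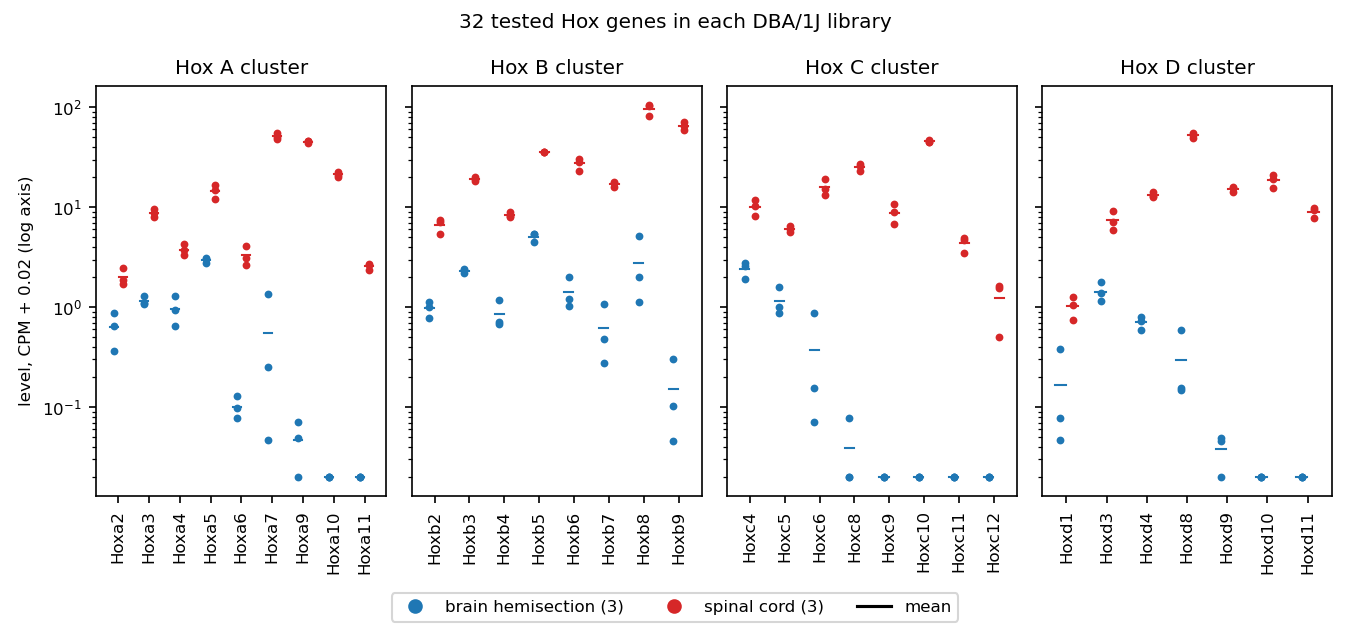
Levels of 32 of the 33 tested Hox genes in each library as CPM with 0.02 added (log axis), by cluster and in order of paralog group, for the 3 brains (blue) and 3 cords (red) with the mean as a line. The tissues do not overlap in any of these genes, and the brain points drop to the floor of the axis at groups 10 to 12 while cord points do not.

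The promoter windows of 2 genes high in cord and 2 high in brain are shown, to give the sequence that heads each gene. Each window runs from 250 bases before to 50 after the start of transcription, read 5′ to 3′ from RefSeq (GRCm38.p6), with CG dinucleotides in capitals. CG reads the same on both strands. The *Hoxa7* window (chr6:52218524-52218823, minus strand) holds 9 CG, and 45.8% of the 32851 windows in the table hold at least as many. The *Hoxd10* window (chr2:74691641-74691940, plus strand) holds 22, matched or exceeded by 23.1%. The *Six3* window (chr17:85620584-85620883, plus strand) holds 14, matched or exceeded by 36.3%, and the *Slc17a7* window (chr7:45163671-45163970, plus strand) holds 13, matched or exceeded by 37.9%. The median window holds 7. DNA methylation was not measured, and these counts are a description only.
Hoxa7: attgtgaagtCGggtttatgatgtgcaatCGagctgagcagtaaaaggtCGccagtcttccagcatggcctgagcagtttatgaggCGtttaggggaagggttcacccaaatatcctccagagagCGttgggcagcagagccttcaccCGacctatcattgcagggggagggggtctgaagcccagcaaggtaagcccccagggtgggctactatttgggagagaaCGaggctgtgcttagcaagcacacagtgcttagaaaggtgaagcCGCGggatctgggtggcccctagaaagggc
Hoxd10: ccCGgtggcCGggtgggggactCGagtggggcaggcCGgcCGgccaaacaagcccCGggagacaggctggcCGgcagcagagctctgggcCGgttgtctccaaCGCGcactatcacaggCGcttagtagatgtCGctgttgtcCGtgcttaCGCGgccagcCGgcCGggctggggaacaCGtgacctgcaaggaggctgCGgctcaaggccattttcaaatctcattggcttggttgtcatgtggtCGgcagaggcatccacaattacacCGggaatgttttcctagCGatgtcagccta
Six3: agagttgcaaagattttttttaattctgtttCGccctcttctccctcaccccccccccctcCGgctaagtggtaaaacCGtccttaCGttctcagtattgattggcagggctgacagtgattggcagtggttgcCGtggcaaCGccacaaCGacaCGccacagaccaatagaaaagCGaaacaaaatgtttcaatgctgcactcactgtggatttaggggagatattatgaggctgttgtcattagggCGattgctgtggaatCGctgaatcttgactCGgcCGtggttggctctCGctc
Slc17a7: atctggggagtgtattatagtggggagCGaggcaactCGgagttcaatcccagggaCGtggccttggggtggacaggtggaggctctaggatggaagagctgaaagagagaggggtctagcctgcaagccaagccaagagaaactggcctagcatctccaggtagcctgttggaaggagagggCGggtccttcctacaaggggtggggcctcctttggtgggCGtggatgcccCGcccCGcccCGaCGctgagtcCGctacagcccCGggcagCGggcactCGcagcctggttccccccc

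Transcription factors of the forebrain and midbrain were lower in cord. All 19 members of the list were called and 18 were past 2-fold, where 5.04% of all tested genes were, with a median log2 fold change of -7.35 when genes with 0 counts are set at their bound. The median of all tested genes was 0.0026. Of the 19, 6 had 0 counts in all 3 cords and so passed the low-count filter only through their brain level. *Fezf2* (chr14:12338992-12346803), a factor of deep-layer cortical neurons, was at 8.66, 10.5 and 7.31 CPM in the brains and had 0 counts in the 3 cords, at least 364-fold lower. So did *Six3* (at least 328-fold), *Otx2* (at least 197-fold), *Emx2* (at least 171-fold) and, outside the list, *Nr2e1*, a factor of neural stem cells (at least 304-fold). *Six3* and its antisense neighbour *Six3os1*, which had 6.94, 5.23 and 5.39 CPM in the brains and 0 counts in the cords, overlap on the genome. The methods of the study give default parameters for the counting and name no strand setting, so their reads cannot be told apart here. *Tbr1*, another factor of cortical neurons, kept a trace in cord and fell from 61.2 ± 1.40 to 0.349 ± 0.108 CPM (SD, n = 3). *Dlx1*, a factor of forebrain GABA neurons, fell from 21.8 ± 3.39 to 0.134 ± 0.0576 CPM. The member that was not past 2-fold was *En2*, a factor of midbrain and cerebellum, at 2.16, 16.3 and 17.0 CPM in the brains and 2.97, 2.60 and 1.94 CPM in the cords, where brain replicate 1 lies within the cords. Without replicate 1 all 19 members were past 2-fold, and the log2 fold change of *En2* was -2.89 (adjusted p = 5.24e-10 in edgeR) in place of -1.92 (adjusted p = 0.0239). It was not called without replicate 2 (adjusted p = 0.135) or replicate 3 (adjusted p = 0.105).

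Cholinergic and motor neuron genes rose in cord. Of 13 members, 12 were called higher and 11 were past 2-fold, where 25.1% and 2.97% of all tested genes were, with a median log2 fold change of 2.79. *Slc5a7*, which takes up choline, was at 21.8, 12.7 and 18.1 CPM in the brains and 114, 130.0 and 117 CPM in the cords. *Slc18a3*, which loads acetylcholine into vesicles, was at 3.32, 2.63 and 3.04 CPM and 34.1, 34.3 and 34.1 CPM. It is annotated inside *Chat* (chr14:32462437-32464850), so the counting had to divide reads that both could give. *Prph*, an intermediate filament of motor and sensory neurons, rose 11.2-fold, and *Chodl*, a marker of fast motor neurons, rose 16.6-fold, from 2.35 ± 0.706 to 38.9 ± 4.58 CPM. *Mnx1*, a factor that defines motor neurons, was at 0, 0.0274 and 0.0860 CPM in the brains and 1.77, 1.34 and 1.64 CPM in the cords, with a log2 fold change of 5.33 that went to 4.66 without replicate 1 and 6.56 without replicate 3. *Calca* and *Calcb*, which encode CGRP peptides, rose 6.80-fold and 10.2-fold, and *Ret*, a receptor for GDNF family ligands, 3.76-fold. *Ache*, which breaks acetylcholine down, rose 2.16-fold and was not past 2-fold by the test (adjusted p = 0.100). *Isl1*, which also marks striatal and hypothalamic neurons, was lower in cord, at 3.06, 1.26 and 2.26 CPM in the brains and 1.14, 1.14 and 1.16 CPM in the cords, with an adjusted p of 0.0316 in edgeR, and of 0.168 without replicate 1 and 0.0936 without replicate 3.

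Glycine transporters and the adult glycine receptor rose in cord. *Slc6a5*, the neuronal glycine transporter, was at 69.7, 59.1 and 80.9 CPM in the brains and 602, 587 and 565 CPM in the cords, a rise of 8.36-fold. *Glra1*, the adult receptor subunit, was at 30.1, 24.0 and 31.7 CPM and 249.9, 248 and 223 CPM, a rise of 8.39-fold. *Slc6a9*, the glial transporter, rose 3.07-fold, while *Slc32a1*, the vesicle transporter shared by glycine and GABA, rose 1.46-fold and *Glrb*, the common receptor subunit, 1.45-fold. Of the 8 members 5 were called higher and 3 were past 2-fold, where 25.1% and 2.97% of all tested genes were. *Glra2*, a subunit prominent in development, was lower in cord (log2 fold change -0.55 ± 0.15, and -0.30 without replicate 1), and its brain levels were 19.6, 12.8 and 14.1 CPM.

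GABA genes were mostly lower in cord. Of 11 members of the synthesis and interneuron list 8 were called lower and 6 were past 2-fold, where 25.7% and 5.04% of all tested genes were, with a median log2 fold change of -1.20. *Gad1* and *Gad2*, which make GABA, fell 2.31-fold and 1.95-fold. *Lhx6*, a factor of cortical interneurons, fell 34.7-fold, *Vip* 10.4-fold and *Cck* 5.76-fold, all of them from levels that did not overlap between tissues. *Sst*, the peptide of another interneuron class, was at 52.8 ± 8.28 CPM in brain and 45.7 ± 3.48 CPM in cord (log2 fold change -0.20 ± 0.064, adjusted p = 0.0315 in edgeR, and 0.0926 and 0.0772 without replicate 1 or 2), and *Calb2* was higher in cord (log2 fold change 0.51 ± 0.10). *Pvalb* was at 38.8, 80.9 and 80.8 CPM in the brains and 49.4, 50.03 and 47.4 CPM in the cords and was not called (adjusted p = 0.132 in edgeR). Without replicate 1 its log2 fold change was -0.73 (adjusted p = 5.72e-08). In the cerebellum *Pvalb* averaged 939 ± 21.3 TPM against 94.5 ± 20.7 TPM in cortex (SD, n = 3).

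GABA-A receptor subunits were also mostly lower, with 8 of 12 called lower and 4 of them past 2-fold, where 25.7% and 5.04% of all tested genes were. The 3 called higher were near the 25.1% of all tested genes. *Gabrd*, of receptors outside synapses, was at 31.2, 53.0 and 48.1 CPM in the brains and 0.720, 0.714 and 0.546 CPM in the cords, 66.8-fold lower in cord. *Gabrb2* fell 4.59-fold. The members called higher were *Gabra2*, *Gabra3* and *Gabra5*, with log2 fold changes of 0.44 ± 0.056, 0.28 ± 0.057 and 0.23 ± 0.054, and *Gabra5* was not called without replicate 2 (adjusted p = 0.0729). *Gabra6* did not pass the filter because of brain replicate 1.

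The glutamate transporters of vesicles moved in opposite directions. *Slc17a7* (VGLUT1) fell 114-fold, while *Slc17a6* (VGLUT2), at 149, 97.9 and 110.3 CPM in the brains and 223, 223 and 229 CPM in the cords, rose 1.89-fold. *Slc17a8* (VGLUT3) fell from 3.33 ± 0.704 to 1.36 ± 0.476 CPM (SD, n = 3). Of the 19 transporters and receptors in the list, 13 were called lower and 6 of them past 2-fold, where 25.7% and 5.04% of all tested genes were. The 5 called higher were near the 25.1% of all tested genes, and 1 of them was past 2-fold. *Grin2b* fell 4.89-fold, *Grin2a* 2.48-fold, *Gria1* 3.05-fold and *Gria2* 2.31-fold. The obligatory subunit *Grin1* fell 1.19-fold and was not called without replicate 2 or 3 (adjusted p = 0.103 and 0.064), and *Grin2d* rose 1.57-fold. *Grin3b*, a subunit known from motor neurons, rose 7.18-fold from a low level, 0.514, 0.575 and 0.803 CPM in the brains and 4.32, 4.26 and 5.00 CPM in the cords. *Gria4* was at 154, 222 and 221 CPM in the brains and 229, 232 and 234 CPM in the cords, and was not called (adjusted p = 0.0678, and 0.0325 without replicate 3).

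Factors and peptides of dorsal horn and other spinal interneurons were mostly higher in cord, 12 of 19 called higher and 8 past 2-fold higher, where 25.1% and 2.97% of all tested genes were. The 5 called lower were near the 25.7% of all tested genes, and 2 of them were past 2-fold, 1 without replicate 1 or 2. *Lbx1* and *Lmx1b*, factors of dorsal neurons, rose 5.62-fold and 5.53-fold. *Pax2* and *Pax8*, factors of inhibitory interneurons, were at 21.9, 19.7 and 18.6 and 10.7, 8.40 and 11.99 CPM in the cords and rose 6.46-fold and 8.20-fold. The peptide *Nmu* rose from 0.0994 ± 0.0121 to 1.87 ± 0.317 CPM. *Gata3* and *Prdm8*, which are also used in the brain, were 3.23-fold and 5.22-fold lower in cord, and *En1* was at 1.74 ± 0.388 CPM in brain and 1.67 ± 0.616 CPM in cord. *Rorb* itself, the gene mutated in the study and a factor of cortical layer 4 and of dorsal horn interneurons, was at 66.0, 56.99 and 50.3 CPM in the brains and 39.1, 41.6 and 38.5 CPM in the cords. The tissues did not overlap, and the log2 fold change was -0.53 ± 0.078 (adjusted p = 7.00e-04 in edgeR). By region it was at 19.2 ± 3.44 TPM in cortex, 6.76 ± 0.617 TPM in hippocampus and 3.93 ± 0.146 TPM in cerebellum, against 12.2 ± 1.58 TPM in the hemisections and 8.54 ± 0.0458 TPM in cord (SD, n = 3).

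The dissected regions show in which of these 3 the genes that were lower in cord were highest. Of the 870 genes past 2-fold lower, 343 were highest in cortex, 255 in hippocampus and 175 in cerebellum, at a level above the hemisection mean. The other 97 were higher in the hemisections than in any of the 3 regions, 41 of them at least 2 times as high. Of the 513 genes past 2-fold higher, 498 had a higher mean TPM in cord than in all 3 regions, and of the 870 genes past 2-fold lower, 543 had a lower mean TPM in cord than in all 3 regions. *Slc17a7* was at 679 ± 64.5 TPM in cortex, 712 ± 39.3 TPM in hippocampus and 399.9 ± 25.6 TPM in cerebellum, against 3.32 ± 0.403 TPM in cord (SD, n = 3). The uncharacterised *Gm43517*, at 0 counts in cord, was at 3.03 ± 0.862 TPM in cortex and 2.32 ± 0.360 TPM in hippocampus. The region libraries came from other mice, and TPM was set across separately normalized libraries. Other brain regions were not dissected, so a gene highest in 1 of the 3 can be higher elsewhere. The choroid plexus gene *Ttr* was above the hemisection mean in hippocampus and cerebellum. The part of choroid plexus in the counts of these regions was not tested.

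Genes of cortical and striatal neurons fell. *Camk2a*, a kinase of excitatory synapses, was at 1679.6, 1641 and 1587 CPM in the brains and 126, 121 and 124 CPM in the cords. *Nrgn*, which binds calmodulin at synapses, fell 32.8-fold and the factor *Mef2c* 15.6-fold. In the cortical list 10 of 13 members were called lower and 7 past 2-fold, where 25.7% and 5.04% of all tested genes were, but *Lamp5* and *Tshz2* were 1.93-fold and 2.03-fold higher in cord. All 10 members of the list for striatal medium spiny neurons were called lower, 7 past 2-fold. *Drd1* was at 29.7, 29.4 and 30.7 CPM in the brains and 1.21, 1.31 and 0.655 CPM in the cords, *Adora2a* fell 22.3-fold, whereas *Penk*, an opioid precursor that spinal neurons also make, fell 1.27-fold and was not called without replicate 3 (adjusted p = 0.0812).

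Cerebellar genes were lower in cord in 9 of 10 tested members and 8 were past 2-fold, where 25.7% and 5.04% of all tested genes were, but their sizes rested on 2 of the 3 brains. *Fat2*, a cadherin of granule cells, was at 2.78, 202 and 200.4 CPM in the brains and 0, 0.114 and 0 CPM in the cords. *Cbln3*, a granule cell glycoprotein, was at 0.540, 217 and 237 CPM and 0.813, 1.29 and 0.852 CPM, so that brain replicate 1 lay below every cord. *Car8*, of Purkinje cells, was at 8.05, 107 and 107 CPM in the brains and 3.46, 5.23 and 4.81 CPM in the cords. *Cbln1* and *Zic1* were at 20.7, 102 and 118 and 61.9, 152 and 158 CPM. Without replicate 1, 12 members passed the filter, all 12 were called lower and 11 were past 2-fold, the median log2 fold change went from -3.25 to -4.43, the log2 fold change of *Car8* went from -3.63 to -4.42, that of *Cbln3* from -7.06 to -7.77 and that of *Cbln1* from -1.42 to -2.15. Without replicate 2 or 3, which leaves brain replicate 1 as 1 of 2 brains, 5 and 6 members were past 2-fold, *Car8* was at -3.11 and -3.02, *Cbln3* was at -6.09 without replicate 3, and *Cbln1* was not called (adjusted p = 0.112 and 0.0795). Of the 175 genes past 2-fold lower that were highest in cerebellum, 134 were lower in brain replicate 1 than in both other brains and 40 were below 0.5 times the mean of those brains. Of the other 695, 7 were below 0.5 times that mean.

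Hypothalamic peptides were at or near 0 in cord, and monoamine genes of the brain stem were lower there. *Avp* (vasopressin) was at 4.11, 2.19 and 2.04 CPM and *Hcrt* (orexin) at 4.22, 1.75 and 1.98 CPM in the brains, and both had 0 counts in the cords, at least 115-fold and 109-fold lower. *Oxt* and *Pmch* were at 3.16, 1.61 and 1.83 and 24.7, 11.3 and 14.1 CPM in the brains and at most 0.0286 and 0.114 CPM in a cord. All 11 tested members of the thalamic and hypothalamic list were called lower and 10 past 2-fold, where 25.7% and 5.04% of all tested genes were. Of the 13 members listed, 4 had 0 counts in all 3 cords. Tested genes of this kind, such as *Avp*, *Hcrt* and the monoamine gene *Dbh*, passed the low-count filter only through their brain level. All 7 tested monoamine genes were called lower too, 6 past 2-fold, and the list summed to 45.0 to 84.0 CPM in the brains and 7.94 to 12.5 CPM in the cords: *Slc6a3*, the dopamine transporter, fell 99.7-fold, *Slc18a2*, the vesicle transporter, 104-fold, and *Dbh*, which makes noradrenaline, had 0 counts in cord and was at 2.57, 1.72 and 2.58 CPM in the brains. *Ddc*, which is also used outside monoamine neurons, fell 1.79-fold (log2 fold change -0.84, and -0.49 without replicate 1). Brain replicate 1 was the highest brain for *Avp*, *Hcrt*, *Oxt*, *Pmch*, *Tph2*, *Slc6a3* and *Slc18a2*, but not for *Dbh*. Without replicate 1 the log2 fold change of *Slc18a2* went from -6.63 to -5.75, that of *Tph2* from -4.28 to -3.63 and that of *Pmch* from -7.50 to -6.81, and without replicate 3 that of *Slc18a2* to -7.39. These genes were higher in the hemisections than in the 3 dissected regions, for example *Avp* at 15.3 ± 5.98 TPM against 1.31 ± 0.788 TPM in cortex and *Slc6a3* at 8.01 ± 2.57 against 0.0667 ± 0.0907 TPM (SD, n = 3).

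**Figure D3:**
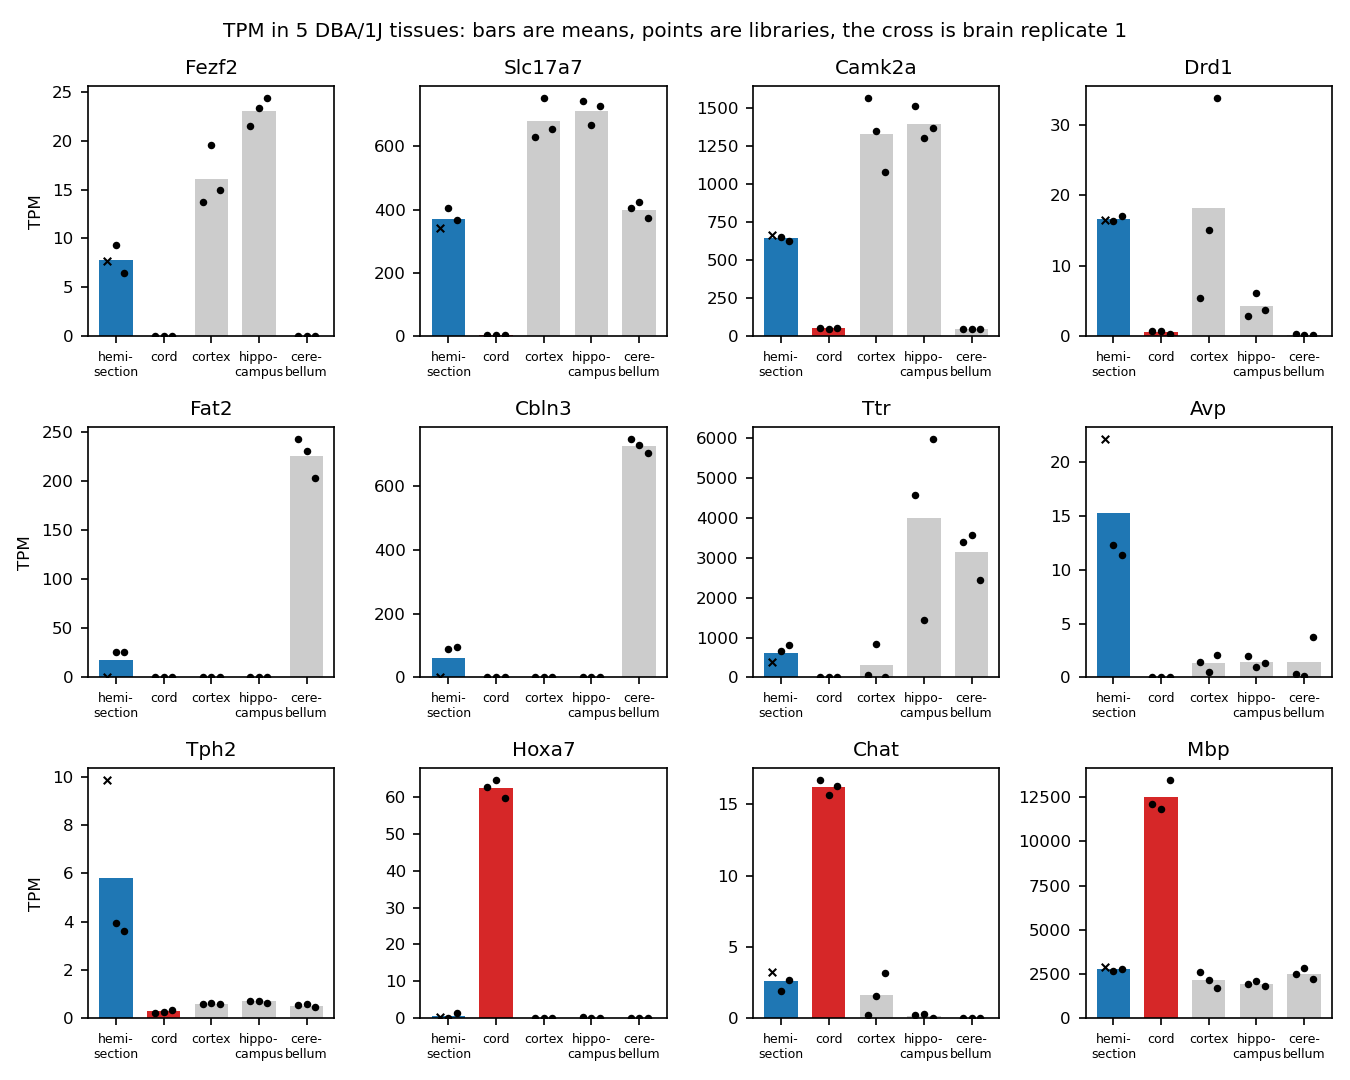
TPM of 12 named genes in brain hemisections (blue), spinal cord (red) and the dissected cortex, hippocampus and cerebellum (grey) of DBA/1J mice; bars are means of 3 libraries, points are libraries and the cross is brain replicate 1. *Fat2* and *Cbln3* are high in cerebellum and near 0 in brain replicate 1, *Avp* and *Tph2* are highest in the hemisections, and *Hoxa7*, *Chat* and *Mbp* are highest in cord.

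Myelin genes rose together in cord. All 23 members of the list were called higher (25.1% of all tested genes), 19 were past 2-fold (2.97% of all), and in all 23 every cord was above every brain (30.2% of all), with a median log2 fold change of 1.70. Their share of all TPM rose from 0.634% to 0.709% in the brains to 2.57% to 2.98% in the cords. *Mbp*, myelin basic protein, was at 2644, 2416 and 2544 CPM in the brains and 10724, 11116 and 11315 CPM in the cords. *Mag*, at the contact with the axon, rose 3.75-fold and *Mobp* 2.66-fold. *Ugt8a*, which makes the myelin lipid galactosylceramide, rose 4.62-fold, and the iron carrier *Trf* 4.22-fold. The lineage factors *Olig1* and *Olig2* rose 2.03-fold and 2.06-fold and *Opalin* 2.24-fold, none of them past 2-fold by the test. Genes of precursor cells moved less: *Pdgfra*, their growth factor receptor, was called lower in cord (64.1 ± 4.78 against 54.1 ± 3.98 CPM, log2 fold change -0.25, and -0.16 without replicate 1), *Gpr17* rose 1.33-fold, and of 6 members 3 were called higher and 1 lower, where 25.1% and 25.7% of all tested genes were. All 16 genes of cholesterol synthesis, the lipid that myelin holds in quantity, were called higher and 6 were past 2-fold, with a median log2 fold change of 1.04. *Hmgcs1* was at 305, 249.9 and 241 CPM in the brains and 747, 787 and 762 CPM in the cords, a rise of 2.88-fold. *Fth1*, the heavy chain of ferritin, and *Plekhb1* were also among the most abundant genes past 2-fold higher, at 6755 ± 576 and 1137 ± 53.4 TPM in cord (SD, n = 3).

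Neurofilament genes, which set the width of axons, were higher in cord as well, 4 of 4 called and 3 past 2-fold, where 25.1% and 2.97% of all tested genes were. *Nefl*, *Nefm* and *Nefh*, the neurofilament subunits, rose 3.66-fold, 5.91-fold and 6.45-fold, while *Ina* rose 1.41-fold. *Nefh* was at 203, 178 and 204 CPM in the brains and 1279, 1281 and 1210.3 CPM in the cords. *Kcna1*, a potassium channel placed beside nodes of Ranvier, was at 316, 365 and 394 CPM in the brains and 798, 809 and 801 CPM in the cords. Of 8 sodium channel genes 3 were called higher and 4 lower, where 25.1% and 25.7% of all tested genes were: *Scn1a* rose 1.78-fold, *Scn8a* 1.25-fold and *Scn4b* 1.99-fold, and *Scn2a* fell 3.49-fold. All 8 forebrain potassium channel genes were called lower and 7 past 2-fold, where 25.7% and 5.04% of all tested genes were: *Kcnj4* fell 197-fold and *Kcnh3* 82.7-fold. The most abundant genes past 2-fold lower were *Ptgds*, a prostaglandin synthase of meninges, choroid plexus and glia (1369.7 ± 86.0 TPM in the hemisections and 546 ± 100.5 TPM in cord, SD, n = 3), *Pcp4*, which binds calmodulin (735 ± 24.2 and 244 ± 22.9 TPM), *Camk2a* and *Ttr*, followed by synaptic and neuronal genes. Of these *Syt1*, the calcium sensor of release, fell 5.64-fold, the vesicle protein *Vamp2* 2.698-fold, *Gpm6a* 2.50-fold, *Olfm1* 3.27-fold and *Arf3* 2.20-fold.

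Astrocyte genes were more often higher in cord than lower. Of 16 members 11 were called higher and 3 were past 2-fold higher, where 25.1% and 2.97% of all tested genes were. The 2 called lower, both past 2-fold, stand against 25.7% and 5.04% of all tested genes. *Gfap*, an intermediate filament abundant in white matter astrocytes, was at 192, 157 and 198 CPM in the brains and 1154, 1186 and 1339 CPM in the cords. The water channel *Aqp4* rose 3.51-fold. Of the glutamate transporters *Slc1a3* (GLAST) fell 4.10-fold, from 449.6, 545 and 555 CPM in the brains to 124, 116 and 138 CPM in the cords, while *Slc1a2* (GLT-1) was at 3687 ± 123 CPM in brain and 3562 ± 14.9 CPM in cord (SD, n = 3) and was not called (adjusted p = 0.495 in edgeR). *Mfge8* fell 3.03-fold. *S100b* was listed at 0 in all 3 brains and is left out.

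Complement *C3* gave the largest rise in the list of complement and MHC genes. *C3* (chr17:57203967-57228136), the central component of the cascade, was at 4.16, 1.94 and 4.16 CPM in the brains and 109.6, 129 and 159 CPM in the cords, a rise of 38.7-fold (log2 fold change 5.27 ± 0.19, adjusted p = 3.34e-07 in edgeR). *C4b* rose 3.21-fold. Of the 12 tested members 5 were called higher and 2 lower, where 25.1% and 25.7% of all tested genes were, and no other member was past 2-fold. The list median was 0.13, and 0.26, 0.28 and -0.16 without replicate 1, 2 or 3. Cord replicate 3, in which *Lyz2* was highest, also had the highest *C3*, and without this animal the log2 fold change of *C3* was 5.30. *C3* was at 0.327 ± 0.0666 TPM in cortex, 1.24 ± 0.567 TPM in hippocampus and 1.02 ± 0.111 TPM in cerebellum, against 50.6 ± 11.2 TPM in cord (SD, n = 3). Microglial genes differed by less: 6 of 14 were called higher and 1 lower, against 25.1% and 25.7% of all tested genes, with a median log2 fold change of 0.22. The count called higher was 9, 2 and 2 without replicate 1, 2 or 3, and the median 0.31, 0.20 and 0.14. The homeostatic *P2ry12* and *Cx3cr1* were at 27.3 ± 4.92 and 38.3 ± 5.07 CPM in brain and 24.0 ± 2.42 and 41.6 ± 8.82 CPM in cord and were not called, though *Cx3cr1* was without replicate 1 (adjusted p = 0.0422), *Tmem119* was lower (log2 fold change -0.29 ± 0.095) but not called without replicate 2 or 3 (adjusted p = 0.0722 and 0.229), and *Ctss* and *Trem2* rose 1.70-fold and 1.64-fold. The summed level of the microglial list was 299 to 384 CPM in the brains and 371 to 494 CPM in the cords.

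The list of vessel genes was near the background of all genes, while genes of choroid plexus and meninges were lower in cord. Of 13 endothelial and pericyte genes 4 were called higher and 3 lower, against 25.1% and 25.7% of all tested genes, and the median log2 fold change was 0.014, within -0.0096 to 0.069 without 1 animal. *Cldn5* was at 22.2, 19.0 and 18.8 CPM in the brains and 20.7, 19.8 and 19.9 CPM in the cords, with a log2 fold change of 0.014 ± 0.072. Of 9 choroid plexus genes 8 were past 2-fold lower in cord, where 5.04% of all tested genes were. *Ttr*, transthyretin, was at 202, 344 and 432 CPM in the brains and 0.0232, 0 and 0.197 CPM in the cords, and at 4004 ± 2335 TPM in hippocampus and 3147 ± 606 TPM in cerebellum (SD, n = 3) against 612 ± 219 TPM in the hemisections. Of 11 genes of meningeal fibroblasts 9 were called lower and 4 past 2-fold, where 25.7% and 5.04% of all tested genes were: *Igf2* fell 4.83-fold and *Slc22a6*, an anion transporter, was at 2.96, 3.15 and 4.04 CPM in the brains and 0, 0 and 0.218 CPM in the cords, while *Col1a2* was at 27.1 ± 5.07 CPM in brain and 28.8 ± 5.08 CPM in cord. The median log2 fold change of the meningeal list was -1.21 in DBA/1J and -1.04 in C57BL/6J mice. In H5/H5 mice it was -0.31, and 0 members were past 2-fold. *Foxj1*, a factor of ciliated ependymal cells, rose 2.47-fold. The ependymal list as a whole had a median log2 fold change of -0.46, and of 0.25, -0.77 and -0.64 without replicate 1, 2 or 3.

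Among tissues that an extruded cord could carry, the list of Schwann cells was higher in cord in sum, and those of ganglion and muscle were lower. The summed level of 8 Schwann cell genes was 107 to 113 CPM in the brains and 140.3 to 149 CPM in the cords. Of the 4 tested members 2 were called higher, 1 without replicate 1, 2 or 3, and 1 lower, where 25.1% and 25.7% of all tested genes were. The list median was 0.66, and 0.98, 0.57 and 0.30 without replicate 1, 2 or 3, and *Pmp22*, a protein of peripheral myelin, rose 3.29-fold. The part of nerve roots in these values was not tested. The summed level of 7 sensory ganglion genes was 2.46 to 4.78 CPM in the brains and 1.60 to 2.14 CPM in the cords. The sum of 8 skeletal muscle genes was 4.56 to 6.14 CPM in the brains and 1.26 to 1.44 CPM in the cords. Summed globin and *Alas2* levels were 88.5 to 425 CPM in the brains and 121 to 331 CPM in the cords, and the median log2 fold change of the 5 blood genes was 0.011, within -0.20 to 0.21 without 1 animal.

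Immediate early genes, which neurons switch on with activity, were lower in cord in 10 of 11 members and 8 were past 2-fold, where 25.7% and 5.04% of all tested genes were. *Arc* was at 176, 221 and 34.7 CPM in the brains and 21.4, 19.0 and 13.98 CPM in the cords, and *Egr1* at 219, 245 and 94.3 CPM and 34.9, 34.0 and 27.4 CPM. *Egr2* fell 47.4-fold and *Npas4* 3.14-fold. *Fos* was at 45.5, 48.6 and 10.7 CPM in the brains and 18.2, 20.8 and 15.2 CPM in the cords and was not called (adjusted p = 0.0722 in edgeR). Brain replicate 3 was the lowest brain in each of these 5 genes, and without replicate 3 the log2 fold change of *Fos* was -1.27 (adjusted p = 1.74e-06), that of *Arc* went from -2.68 to -3.28 and that of *Egr2* from -5.29 to -6.44, and to -4.64 without replicate 2. The time from death to freezing is not given in the sources used here, and its part in these values was not tested.

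**Figure D4:**
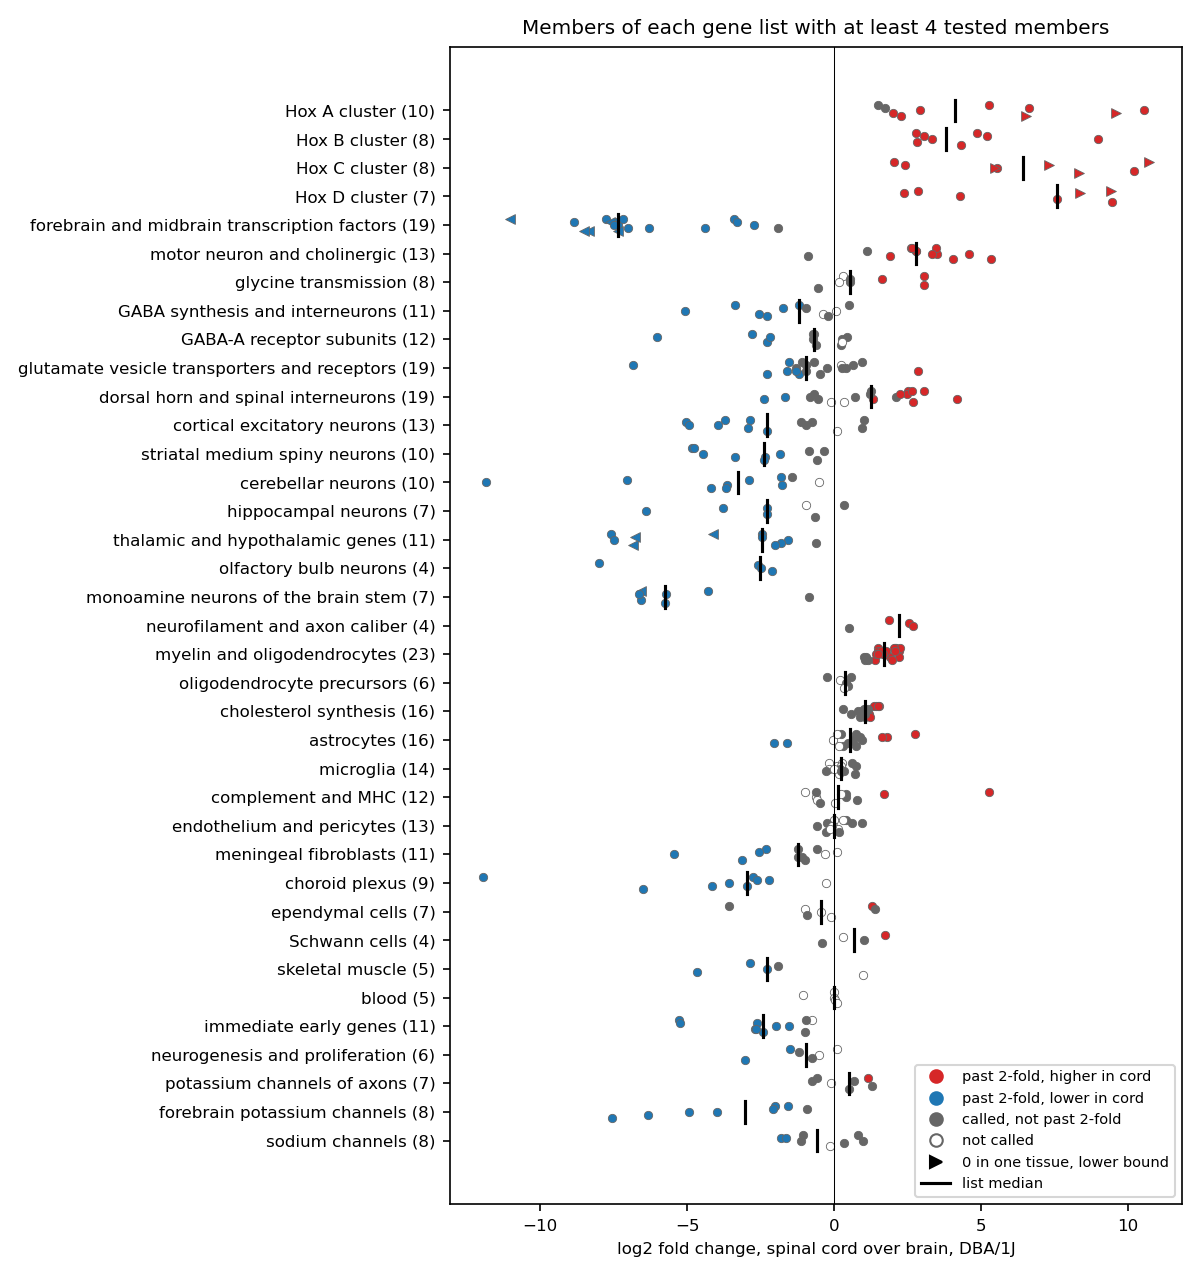
Log2 fold change of cord over brain for the tested members of each gene list (number in brackets), coloured by test outcome, with triangles for genes at 0 in one tissue and a line at the list median. Hox, motor neuron, neurofilament, myelin and cholesterol lists lie to the right, lists of forebrain, cerebellar, brain stem and choroid plexus genes to the left, and endothelial, microglial and blood genes near 0.

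The same tissue difference was measured in 2 further groups of 3 animals. Over all tested genes 55.7% were called in C57BL/6J and 49.6% in H5/H5 mice. Of the 513 genes past 2-fold higher in DBA/1J cord, 437 were also past 2-fold higher in C57BL/6J (85.2%), where 3.43% of all tested genes were, and 1 had the opposite sign. Of the 870 genes past 2-fold lower, 763 were past 2-fold lower in C57BL/6J (87.7%), against 6.1% of all tested genes, and 2 had the opposite sign. In the other direction, 72.1% and 70.8% of the C57BL/6J genes past 2-fold higher and lower were so in DBA/1J. In H5/H5 mice 437 of the 513 (85.2%) and 699 of the 870 (80.3%) were past 2-fold the same way, against 2.97% and 5.19% of all tested genes, and 0 had the opposite sign. In the other direction, 83.4% and 76.5% of the H5/H5 genes were so in DBA/1J. *Hoxa7*, *Chat*, *Slc17a7*, *Slc6a5*, *C3* and *Mbp* had log2 fold changes of 9.03, 2.60, -7.26, 3.38, 5.73 and 1.89 in C57BL/6J, and of 9.18, 2.22, -6.86, 3.09, 5.71 and 2.26 in H5/H5 mice.

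Whether the tissue difference itself differed between groups was tested with an interaction term over 12 libraries. Against C57BL/6J, 40 of 18375 genes were called (0.218%), 20 with a higher cord-to-brain ratio in DBA/1J and 20 with a lower one, and 1787 had an unadjusted p under 0.05 (9.73%). Of the 40, 12 had opposite signs in the strains and 10 were past 2-fold in DBA/1J, where 8.01% of all genes tested in DBA/1J were. *Pxdn*, a peroxidase of the extracellular matrix, was at 54.0, 51.4 and 49.3 CPM in DBA/1J brains and 69.0, 63.4 and 60.6 CPM in DBA/1J cords, but at 58.0, 56.2 and 65.5 CPM in C57BL/6J brains and 40.3, 38.9 and 44.0 CPM in C57BL/6J cords. *Tspan11*, a tetraspanin, was at 6.37, 10.5 and 7.88 CPM in DBA/1J brains and 2.37, 2.20 and 2.58 CPM in the cords, against 8.59, 6.97 and 8.24 and 0.208, 0.283 and 0.222 CPM in C57BL/6J. *Extl1*, of heparan sulfate synthesis, was at 37.4, 39.8 and 39.0 and 15.8, 14.1 and 14.2 CPM in DBA/1J and 31.5, 37.4 and 34.0 and 26.5, 27.5 and 27.4 CPM in C57BL/6J. The log2 differences between the strains were 0.86 ± 0.073 (adjusted p = 0.00117), 3.29 ± 0.31 (adjusted p = 0.00117) and -1.07 ± 0.10 (adjusted p = 0.00117). H5/H5 mice did not enter this test, and of 39 genes tested in all 3 groups their tissue difference lay nearer to that of DBA/1J than to that of C57BL/6J in 35. These genes were chosen because DBA/1J and C57BL/6J differed in them. The share over all tested genes was not computed, so this count is a description only. The count of 40 fell to 7, 3 and 13 without C57BL/6J replicate 1, 2 or 3, and was 54, 33 and 32 without DBA/1J replicate 1, 2 or 3. Against H5/H5 mice, 0 of 18190 genes were called in edgeR (0%) and 0 in DESeq2, 727 had an unadjusted p under 0.05 (4%), and the smallest adjusted p was 0.994. Strain cannot be told apart from the animal series, since all C57BL/6J mice carry identifiers of other series than the DBA/1J and H5/H5 mice. Sex and age differed too. DBA/1J mice were male, male and female, of 8.4 to 8.9 weeks. C57BL/6J mice were female, female and male, of 8.0 weeks. The interaction test held no term for sex or age acting on the tissue difference.

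**Figure D5:**
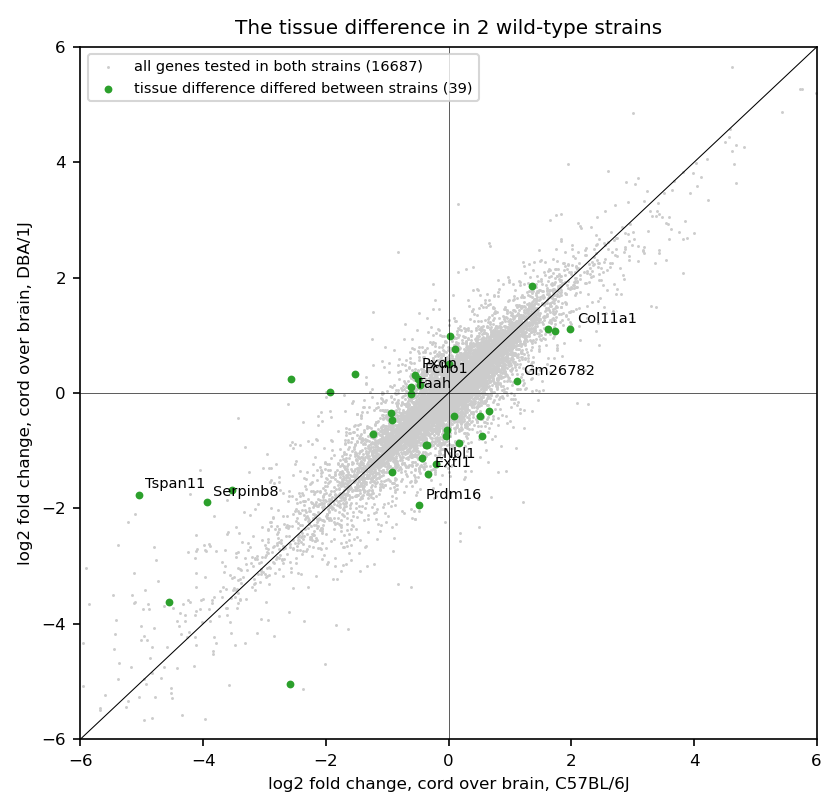
Log2 fold change of cord over brain in DBA/1J (y axis) against C57BL/6J (x axis) for 16687 genes tested in both strains (grey) and 39 of the 40 genes whose difference was called between strains (green), with the line of equality; 108 genes lie outside the axes, which end at 6. Most genes follow the line, and the 10 labelled genes lie off it.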

How the data were processed

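Poly(A) RNA was sequenced as paired-end reads. Per the labels and the methods of the study, the authors trimmed reads with Trim Galore and aligned them to GRCm38 with STAR. Genes were quantified with RSEM, for which the methods give default parameters and name no strand setting. The annotation version is not given in the sources used here. The authors deposited expected counts, which need not be whole (4.94% to 5.26% of the values in the 6 libraries were not), and TPM, which scales each library to a fixed sum per transcript length.

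Expected counts were rounded and tested with edgeR 4.0.16 in R 4.3.3: TMM scaling, the filterByExpr filter by tissue, and the quasi-likelihood test with animal and tissue as terms. Genes were called at a Benjamini-Hochberg adjusted p under 0.05 over all genes tested, and past 2-fold by glmTreat at a log2 fold change of 1. Each p-value rests on 3 animals, and the biological coefficient of variation was 0.0815 with 2 residual degrees of freedom. The labels tie a brain and a cord to each animal, and deviations of same-animal libraries from the group means correlated at 0.066, 0.21 and 0.28. Interaction terms over 12 libraries tested groups against each other. Alternatives were a fit without the block, DESeq2 1.42.0, its size factors, no filter, and leaving out each animal. The steps were tested on simulated data. No libraries were duplicates.

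CPM use TMM effective library sizes, and mean ± SD is over 3 animals. Folds are ratios of mean CPM; against 0 counts they are bounds at 3 counts over the group. Totals of 35588279 to 42918369 counts put that floor at 0.027 CPM in brain and 0.024 CPM in cord. Symbols come from GENCODE vM39 and matched 41384 of 45706 identifiers; 1.75% to 11.1% of counts had no symbol. Positions and promoter windows are RefSeq's for GRCm38.p6. Named genes were the 3 markers, members of 39 lists (415 genes), the 10 largest log2 fold changes and the 10 most abundant genes past 2-fold in each direction, and the 5 smallest interaction p in each direction; some of these genes are not reported here. The members and lists were chosen with earlier results of these data known. Figures used matplotlib 3.10.9.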

Additional observations from a re-analysis of the deposited data

Results flagged for a closer look

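The difference between spinal cord and brain differed between DBA/1J and C57BL/6J in 40 genes by the interaction test in edgeR. The cord-to-brain ratio was higher in DBA/1J for *Pxdn* by 0.86 on the log2 scale, *Tspan11* by 3.29, *Fcho1* by 0.73, *Faah* by 0.59 and *Serpinb8* by 2.03. It was lower in DBA/1J for *Extl1* (-1.07), *Col11a1* (-0.88), *Nbl1* (-1.03), *Prdm16* (-1.46) and *Gm26782* (-0.92). Adjusted p for these 10 genes ran from 0.00117 to 0.0188. *Pxdn*, *Fcho1* and *Faah* were lower in C57BL/6J cord than brain, with log2 fold changes of -0.54, -0.50 and -0.61, while in DBA/1J these were 0.32, 0.24 and -0.015. *Prdm16*, a chromatin factor of neural progenitors and ependymal cells, had a log2 fold change of -1.94 in DBA/1J and -0.48 in C57BL/6J. *Cd74* and *H2-Ab1*, of MHC class II presentation, were also among the 40, with log2 differences of 1.94 and 2.79. Without C57BL/6J replicate 2, 7 of the 10 genes were no longer called, and 3 of the 10 without C57BL/6J replicate 1 or replicate 3.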

How the results depend on the processing

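The count of called genes, 8780, was 8783 without the replicate block, 8801 with DESeq2 size factors, 8962 without the low-count filter, 7178 in DESeq2, and 6608 to 9106 without 1 animal. The count past 2-fold, 1383, was 1402 without the replicate block, 984 in DESeq2 and 1116 to 1557 without 1 animal. Genes that differed between DBA/1J and C57BL/6J numbered 40, 59 without the replicate block, 95 in DESeq2, 330 without the low-count filter, and 3 to 54 without 1 animal, the lowest without C57BL/6J replicate 2; the cause was not tested. Against H5/H5 the count was 0 in each of these. The median of the ependymal list, -0.46, ran from -0.77 without replicate 2 to 0.25 without replicate 1. Among 181 named genes the sign changed without replicate 2 or 3 in *Cldn5* and without replicate 3 in *En1* and *Cx3cr1*, which were not called. The replicate block moved the call of 1 of them.

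The calls of *En2*, *Isl1*, *Sst*, *Gabra5*, *Grin1*, *Penk*, *Cbln1* and *Tmem119* were lost in at least 1 alternative, and *Pvalb*, *Gria4*, *Cx3cr1* and *Fos* were called in at least 1. With 3 animals, 2 residual degrees of freedom and 1 brain with few cerebellar transcripts, the comparison limits what can be said of cerebellar genes, and genes near the floor of 3 counts have no measurable fold.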

Other observations

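Further lists gave smaller groups of genes, to be read against the 25.1% of all tested genes called higher, the 25.7% called lower and the 5.04% past 2-fold lower. Of 7 tested hippocampal genes 5 were called lower in cord, 4 of them past 2-fold, and 1 higher. All 4 tested genes of olfactory bulb neurons were past 2-fold lower. Of 6 genes of neurogenesis and proliferation 4 were called lower, 2 of them past 2-fold: *Dcx*, a microtubule protein of young neurons, was at 59.2, 67.8 and 69.8 CPM in the brains and 22.3, 22.99 and 24.4 CPM in the cords. Of 7 potassium channel genes of axons 4 were called higher and 2 lower, the latter near the share of all genes; *Kcnq3* fell 1.68-fold. None of the pituitary genes passed the filter, and *Prl*, the hormone prolactin, was at 0, 0.192 and 3.55 CPM in the brains. Of the 1383 genes past 2-fold, 1175 were in none of the lists.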
